A study of Mus musculus with 28 samples.

Results

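The genes described here encode parts of the machinery by which synaptic vesicles release transmitter, and were chosen by name for their roles in it: the calcium sensor synaptotagmin 1 (Syt1) and its relative synaptotagmin 4 (Syt4), the vesicle glycoproteins SV2A, SV2B and SV2C (Sv2a, Sv2b, Sv2c), the plasma-membrane SNAREs SNAP-25 (Snap25) and syntaxin 1A (Stx1a), the vesicle SNARE synaptobrevin 2 (Vamp2), synapsin 2 (Syn2), which tethers vesicles, and rabphilin 3A (Rph3a), which binds the vesicle GTPase Rab3. This choice, and that of the wider list below, was made with earlier results of these data known. A gene was taken where a probe set of the array carried its symbol and no other, which held for 9 of the 10 genes, each with 1 probe set, out of 19938 genes measured in all. The only probe set of Vamp2 is annotated to Ubr3 as well, so Vamp2 was not measured here. Neurons release transmitter when calcium entry triggers the fusion of synaptic vesicles with the plasma membrane. Fusion is driven by SNARE proteins, which zip the membranes of vesicle and cell together, and the vesicle's calcium sensor sets its timing.

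Expression was measured on 28 arrays of mouse cells of strain 129SvEv in 12 groups. Topoisomerase IIβ (Top2β), an enzyme that passes DNA strands through one another, is missing in the knockout cells (KO, labelled Top2β knockout), which were compared with wild-type cells (WT) as embryonic stem (ES) cells, as neuronal progenitors (NP) and as neurons on days 2 and 6 of a stage labelled TN, which the labels do not spell out, with 2 arrays a group, or 3 on day 6. ICRF-193, a catalytic inhibitor of topoisomerase II, was compared with DMSO at TN day 5 (2 arrays each) and in glutamatergic neurons of the E16.5 cortex (3 arrays each). The labels give no genotype for these 4 groups. They state 1 schedule, 50 µM ICRF-193 or DMSO renewed every 24 hours between days 2 and 5 of TN, and no other for the cortical cells. Whether arrays of a group came from separate cultures or animals, and whether the knockout is 1 clone, is not given in the sources used here, so p-values measure the spread between arrays. Values are on the log2 scale, so a difference of 1 is a doubling; "called" means a Benjamini-Hochberg adjusted p of limma under 0.05 over all 19938 genes, and errors of differences are standard errors (SE).

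Top2b itself averaged 8.97 ± 0.03 in KO and 11.38 ± 0.03 in WT cells at TN day 2 (SD, n = 2 each), and 8.91 ± 0.20 in KO and 11.22 ± 0.09 in WT cells at TN day 6 (SD, n = 3 each). The ES KO arrays correlated least with each other of all groups (r = 0.974; 0.984 or more elsewhere). Their Top2b values were 7.11 and 5.79 (KO), against 7.52 and 7.96 in WT, so comparisons with ES KO cells rest on 2 unlike arrays. The pan-neuronal markers followed the labels: over 7 markers the summed log2 values were 47.6 to 51.2 in ES cells, 63.7 to 64.9 in NP cells and 73.0 or more in all other groups. The glutamatergic markers had their highest summed values in the cortical neurons that carry this label (47.6 to 47.9 with ICRF-193 and 46.6 to 47.4 with DMSO over 5 markers, and 24.7 to 38.7 in the other groups). Of the vesicular glutamate transporter genes, Slc17a6 stood at 10.55 ± 0.04 with ICRF-193 and 9.59 ± 0.10 with DMSO, and Slc17a7 at 7.53 ± 0.07 with ICRF-193 and 7.65 ± 0.03 with DMSO (SD, n = 3 each). The GABAergic markers were highest there as well (55.5 to 56.1 with ICRF-193 and 54.2 to 54.4 with DMSO over 6 markers, and 35.4 to 46.2 in the other groups). These are bulk arrays, in which fewer cells of a type and less RNA per cell cannot be told apart.

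The sequences upstream of 3 members are shown because these genes differ in their pattern below: Syt1 was lower in both systems, Sv2a was higher in KO progenitors, and Sv2b moved in opposite directions. Each is the 250 bases before an annotated RefSeq transcript start, read 5′ to 3′ on the gene's strand; where a gene has several starts the outermost is shown, and which start these cells use was not measured. Capitals mark matches on either strand to GGACAG, which is part of the binding motif of the repressor REST, to CACGTG (E-box) and to GGGCGG (GC box). Of 32851 windows of this length 18.7% hold GGACAG, 6.02% CACGTG and 32.7% GGGCGG, so single matches are common.
Syt1 (GRCm38.p6, chr10:109010976-109011225, minus strand): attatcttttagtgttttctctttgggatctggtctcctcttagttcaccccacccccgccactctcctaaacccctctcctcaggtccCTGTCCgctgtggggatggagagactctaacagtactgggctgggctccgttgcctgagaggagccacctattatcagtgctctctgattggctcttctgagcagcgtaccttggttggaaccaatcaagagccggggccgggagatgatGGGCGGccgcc
Sv2a (GRCm38.p6, chr3:96180977-96181226, plus strand): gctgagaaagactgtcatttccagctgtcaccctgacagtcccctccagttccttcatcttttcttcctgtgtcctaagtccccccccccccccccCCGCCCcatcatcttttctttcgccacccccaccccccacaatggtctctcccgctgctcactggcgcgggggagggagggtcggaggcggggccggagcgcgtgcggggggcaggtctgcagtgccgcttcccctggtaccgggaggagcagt
Sv2b (GRCm38.p6, chr7:75309263-75309512, minus strand): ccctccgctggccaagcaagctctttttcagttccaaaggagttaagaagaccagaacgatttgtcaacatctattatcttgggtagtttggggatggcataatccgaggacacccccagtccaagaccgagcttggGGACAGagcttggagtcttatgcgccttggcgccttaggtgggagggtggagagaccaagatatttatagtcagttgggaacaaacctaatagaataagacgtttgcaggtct
The Syt1 window holds 1 GGACAG, read on the opposite strand, and 1 GGGCGG. The Sv2a window holds 1 GGGCGG, on the opposite strand, and the Sv2b window 1 GGACAG. In base composition the Sv2a window is 66.0% G and C, Syt1 56.4% and Sv2b 48.8%, where the median of all windows is 52.4%.

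In wild-type cells the release genes rose in steps. From ES to NP cells 5 of the 9 rose and 1, Sv2c, fell (6 called, where 46.3% of all genes were called, 21.7% higher and 24.5% lower). Low signals underlie 2 of these changes. The means of Sv2c (5.64 in ES and 5.12 in NP cells) and Sv2b (4.87 and 5.85) lay below the lowest array median, 6.12. Snap25 showed the steepest step, by 2.71 ± 0.11 (adjusted p = 5.6e-14), and Syt1 rose by 1.74 ± 0.15, while Syt4, Stx1a and Rph3a were not called (0.19, -0.20 and 0.09). The Sv2c call (-0.51 ± 0.19, adjusted p = 0.035) was lost without any 1 of the 4 arrays (0.054 to 0.19) and the Syn2 call without NP WT replicate 1 (0.071), which also gave a Syt4 call (0.46, adjusted p = 0.013). From NP cells to TN day 2 all 9 were called higher (48.2% of all genes called, 21.6% higher and 26.6% lower), led by Syt4 with 3.16 ± 0.14 (adjusted p = 1.3e-13), Syt1 with 2.15 ± 0.15 and Sv2c with 1.98 ± 0.19. Of these calls 7 held in every alternative: Syn2 (0.42 ± 0.16, adjusted p = 0.035) was lost without NP WT replicate 2 (0.23, adjusted p = 0.37), without TN day 2 WT replicate 1 (0.076) or 2 (0.14) and in a fit of the 4 arrays (0.059), and Rph3a without NP WT replicate 2 (0.082). From TN day 2 to TN day 6 all but Sv2b (0.25 ± 0.16, adjusted p = 0.26) were called higher, 8 of 9, where 28.5% of all genes were called and 16.7% were higher. Syt1 lost its call there without TN day 2 WT replicate 2 (adjusted p = 0.094). Syn2 rose most in that step, by 1.68 ± 0.15, followed by Sv2c (1.40 ± 0.18) and Sv2a (1.32 ± 0.09). The largest step was from ES to NP cells for Snap25, from TN day 2 to TN day 6 for Syn2 and Rph3a, and from NP cells to TN day 2 for the remaining 6.

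In KO cells the first step was called for Syt1, Syt4, Sv2a and Snap25, all higher (4 of 9, where 37% of all genes were called and 16.3% were higher), and the Syt4 call was lost in a fit of the 4 arrays (adjusted p = 0.082). The second was called for all but Syn2 and Rph3a, again higher (7 of 9, against 44.4% called and 19.6% higher). Without TN day 2 KO replicate 1 that step lost Sv2a (0.26, adjusted p = 0.085) and Sv2b (0.51, adjusted p = 0.061). The third was called higher for all 9 (34.8% called and 22.1% higher), in every alternative. Sv2b had its largest step in KO cells between TN day 2 and TN day 6 (1.76 ± 0.16), whereas in WT cells its largest was between NP cells and TN day 2 (1.0 ± 0.18), nearly matched by that from ES to NP cells (0.98 ± 0.18).

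**Figure D1:**
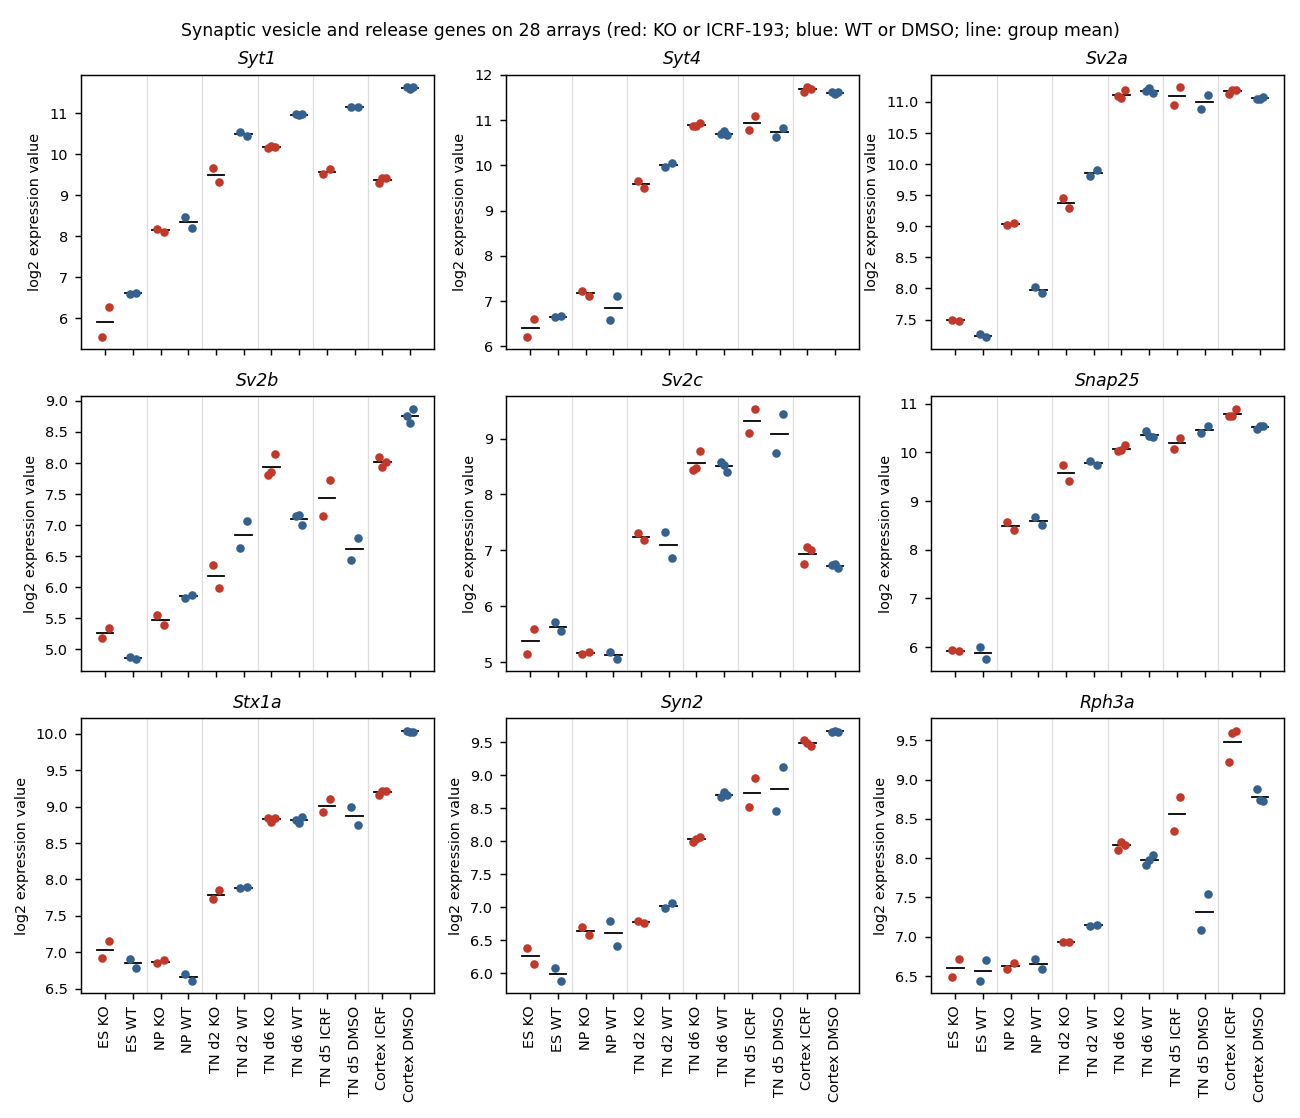
log2 expression value (y axis) of each of the 9 genes on every array (points) in the 12 groups (x axis), with the group mean as a line; red points are KO or ICRF-193 arrays and blue points WT or DMSO arrays. Syt1 is lower on every KO array at TN day 2 and TN day 6 and on every ICRF-193 array than on the arrays beside them, and each gene has its own y axis.

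Syt1 encodes the calcium sensor of fast release and spans 513.3 kb in the RefSeq annotation, the longest of the 9 genes (the others span 9.6 to 194.4 kb). At TN day 2 the 2 KO arrays read 9.66 and 9.31, against 10.54 and 10.45 on the WT arrays. At TN day 6 the 3 KO arrays read 10.15, 10.20 and 10.18, against 10.98, 10.95 and 10.97 on the WT arrays. The KO arrays lay below every WT array at both stages, with a difference of -1.01 ± 0.15 for TN day 2 (limma adjusted p = 0.00015) and of -0.79 ± 0.12 for TN day 6 (limma adjusted p = 0.00011). At TN day 2, 5 of 7 pan-neuronal markers were lower in KO cells too, and at TN day 6 0 of 7 were, but 1 of 5 glutamatergic markers was. In NP cells the KO values were 8.17 and 8.11 and the WT values 8.47 and 8.21, a difference that was not called (-0.20 ± 0.15, adjusted p = 0.94). The effect at TN day 2 differed from that in NP cells by -0.81 ± 0.21 (adjusted p = 0.042), a call that was lost in a fit of these 8 arrays alone (adjusted p = 0.10) and when any 1 of 6 of them was left out (0.05 to 0.27). In ES cells, where Syt1 was low, KO read 5.54 and 6.26 against 6.59 and 6.62 in WT. That difference was called (-0.71 ± 0.15, adjusted p = 0.043), but not without ES KO replicate 1 (-0.35, adjusted p = 0.43), without ES WT replicate 1 or 2 (0.31 and 0.19), with array weights, which count unlike arrays less (0.98), in a fit of these 4 arrays (0.93) or with same-numbered arrays paired as a replicate block (0.057).

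Syt1 was lower with ICRF-193 as well. At TN day 5 the ICRF-193 arrays read 9.52 and 9.63, against 11.15 and 11.16 with DMSO. In cortical neurons they read 9.30, 9.43 and 9.41, against 11.64, 11.60 and 11.63 with DMSO. Every treated array was below every DMSO array of its system. Of the 7 pan-neuronal markers 2 were lower at TN day 5, and 3 were lower and 1 higher in cortical neurons. The difference was -1.58 ± 0.15 at TN day 5 (limma adjusted p = 1.9e-07), a level 0.334 times that with DMSO. In cortical neurons it was -2.24 ± 0.12 (adjusted p = 8.2e-12), or 0.211 times. Between the systems the drug effect differed by -0.66 ± 0.19, which was not called (adjusted p = 0.056) but was with quantile normalization (0.017) and in 4 other settings (0.0055 to 0.038). Cortical neurons with DMSO had the highest Syt1 level of the 12 groups (11.62 ± 0.02, SD, n = 3). With ICRF-193 they fell to 9.38 ± 0.07, a level whose range overlapped that of KO cells at TN day 2 (9.48 ± 0.24, n = 2).

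Syt4 encodes a synaptotagmin of dense-core vesicles whose first C2 domain does not bind calcium the way that of Syt1 does. After ICRF-193 the cortical values were 11.61, 11.73 and 11.69, against 11.62, 11.58 and 11.62 with DMSO. At TN day 5 they were 10.77 and 11.09 with ICRF-193, against 10.63 and 10.83 with DMSO. The ranges overlapped in both systems and neither difference was called (0.07 ± 0.12, adjusted p = 0.69, and 0.20 ± 0.14, adjusted p = 0.42), on the same arrays on which Syt1 fell. In KO cells at TN day 2 Syt4 read 9.65 and 9.51, against 9.96 and 10.05 in WT (-0.43 ± 0.14, adjusted p = 0.056). That difference was called with array weights, with limma's trended robust prior and with dim genes left out (0.033 to 0.037). The KO effect at TN day 2 differed from that in NP cells by -0.75 ± 0.20 (adjusted p = 0.047), and this call was lost with median centring (0.063), with quantile normalization (0.076), in a fit of these 8 arrays alone (0.17) and without any 1 of 6 of them (0.089 to 0.23). The KO effect at TN day 6, 0.19 ± 0.12, was not called (adjusted p = 0.40).

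The SV2 genes encode glycoproteins of the vesicle membrane. SV2A is the binding site of the antiepileptic drug levetiracetam, and SV2C is a receptor of botulinum neurotoxin A. Sv2a was higher in KO than in WT progenitors. In NP cells the KO arrays read 9.02 and 9.05, against 8.03 and 7.93 on the WT arrays, with no overlap. The difference of 1.06 ± 0.10 (2.08-fold, limma adjusted p = 8.1e-06) was the only call among the 9 genes at this stage, where 0.627% of all genes were called, and it held in all 13 alternatives (adjusted p of 0.0094 or less).

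The direction of Sv2a had turned by TN day 2. KO cells read 9.45 and 9.30, against 9.81 and 9.91 in WT (-0.48 ± 0.10, adjusted p = 0.0021), a call that was lost without TN day 2 KO replicate 2 (0.071) and in a fit of these 4 arrays (0.10). From NP cells to TN day 2 Sv2a rose by 0.34 ± 0.10 in KO cells, a call lost without TN day 2 KO replicate 1 as above, against 1.88 ± 0.10 in WT cells, and the difference between these steps, -1.54 ± 0.14, was called in every setting (adjusted p = 4.5e-06; 0.0055 at most). At TN day 6 KO cells read 11.09, 11.06 and 11.19, against 11.18, 11.22 and 11.14 in WT. These ranges overlapped, and the difference was not called (-0.06 ± 0.08, adjusted p = 0.78). After ICRF-193 it was not called either, at 0.09 ± 0.10 at TN day 5 (adjusted p = 0.60) and 0.11 ± 0.08 in cortical neurons (adjusted p = 0.31).

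Sv2b changed sign between stages and between systems. KO cells at TN day 2 read 6.36 and 5.99, against 6.63 and 7.07 in WT (-0.68 ± 0.18, adjusted p = 0.015). That call was lost without TN day 2 WT replicate 2 (-0.45, adjusted p = 0.17), without TN day 2 KO replicate 2 (-0.49, adjusted p = 0.26) and in a fit of these 4 arrays (adjusted p = 0.13). KO cells at TN day 6 read 7.81, 7.85 and 8.15, against 7.15, 7.16 and 7.0 in WT. There every KO array lay above every WT array, by 0.83 ± 0.14 (1.78-fold, adjusted p = 0.00039), in every setting tried. The KO effects at the 2 stages differed by 1.51 ± 0.23 (adjusted p = 0.00035; 0.0067 at most over the alternatives). The step from TN day 2 to TN day 6 was thus 1.76 ± 0.16 in KO cells and 0.25 ± 0.16, not called, in WT cells.

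With ICRF-193 at TN day 5 Sv2b read 7.14 and 7.73, against 6.44 and 6.80 with DMSO. That rise of 0.81 ± 0.18 (adjusted p = 0.0049) was not called without TN day 5 DMSO replicate 1 (0.64, adjusted p = 0.06), without TN day 5 ICRF-193 replicate 2 (0.52, adjusted p = 0.077) or with only the 4 arrays (adjusted p = 0.16). In cortical neurons the ICRF-193 arrays read 8.09, 7.94 and 8.02, against 8.75, 8.65 and 8.87 with DMSO, with every treated array below every DMSO array (-0.74 ± 0.14, adjusted p = 0.00067). The drug effects in the 2 systems differed by -1.55 ± 0.23 (cortical minus TN day 5, adjusted p = 0.00013), in every setting. The 2 DMSO groups did not overlap in level, at 8.76 ± 0.11 in cortical neurons (SD, n = 3) and 6.62 ± 0.25 at TN day 5 (n = 2).

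The highest levels of Sv2c were at TN day 5 (9.32 ± 0.30 with ICRF-193 and 9.09 ± 0.49 with DMSO, SD, n = 2 each), whereas cortical neurons stood at 6.94 ± 0.16 with ICRF-193 and 6.72 ± 0.03 with DMSO (n = 3 each), below every array of TN day 5 and TN day 6. The knockout and drug differences were between -0.26 and 0.22, and none was called (adjusted p of 0.34 or more). Syt4 and Sv2c were the members with no call in any of the 6 comparisons of KO with WT or of ICRF-193 with DMSO.

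**Figure D2:**
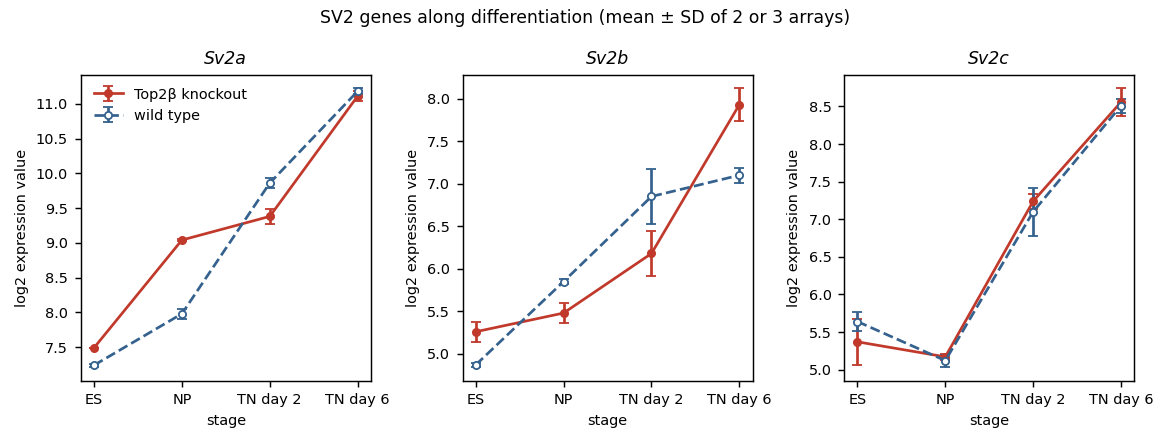
Mean log2 expression value ± SD (y axis) of Sv2a, Sv2b and Sv2c at the 4 stages (x axis) in KO cells (solid red) and WT cells (dashed blue), 2 arrays a point or 3 at TN day 6. The Sv2a lines are apart in NP cells (9.04 in KO, 7.98 in WT), cross before TN day 2 (9.38 in KO, 9.86 in WT) and meet at TN day 6. The Sv2b lines cross between ES cells (5.26 in KO, 4.87 in WT) and NP cells (5.48 in KO, 5.85 in WT). Neither of these Sv2b differences was called (limma adjusted p = 0.30 in ES and 0.65 in NP cells), nor was the difference between them (0.26). The Sv2b means in ES and NP cells all lay below the lowest array median, 6.12. The Sv2b lines cross again between TN day 2 and TN day 6, and no difference between the Sv2c lines was called.

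Among the SNARE genes, Snap25 and Stx1a moved in opposite directions in drug-treated cortical neurons. Stx1a read 9.16, 9.22 and 9.22 with ICRF-193, against 10.04, 10.03 and 10.03 with DMSO. It fell by 0.83 on the log2 scale (SE 0.08, 0.561 times the DMSO level, adjusted p = 6.1e-08), in every setting. At TN day 5 it read 8.92 and 9.10 with ICRF-193, against 9.0 and 8.75 with DMSO, which overlap (0.13 ± 0.10, adjusted p = 0.43). The 2 drug effects differed by -0.97 ± 0.12 (adjusted p = 2.8e-05; 0.0018 at most over the alternatives). KO and WT levels of Stx1a differed by 0.21 or less in size at all 4 stages with no call.

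Snap25 in cortical neurons read 10.75, 10.74 and 10.89 with ICRF-193, against 10.48, 10.55 and 10.53 with DMSO (0.27 ± 0.09, adjusted p = 0.038). The call was lost whenever any 1 of the 6 arrays was left out (adjusted p from 0.059 to 0.15). At TN day 5 it read 10.07 and 10.30 with ICRF-193, against 10.39 and 10.53 with DMSO (-0.28 ± 0.11, adjusted p = 0.14). The difference between the drug effects, 0.55 ± 0.15, was called (adjusted p = 0.033), though not with array weights (0.076) or without any 1 of 6 of these arrays (0.053 to 0.18). At TN day 6 all KO arrays (10.03, 10.05 and 10.15) lay below all WT arrays (10.43, 10.33 and 10.31). This difference of -0.28 ± 0.09 missed the threshold (adjusted p = 0.059) and passed it in 6 of the 14 alternatives (0.0099 to 0.049).

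Syn2, for a synapsin that holds vesicles in the reserve pool, was lower in KO cells at TN day 6. The KO arrays read 7.99, 8.04 and 8.07, against 8.67, 8.74 and 8.70 on the WT arrays. The groups did not overlap, and the difference was called in every setting (-0.67 ± 0.13, 0.629 times the WT level, adjusted p = 0.0014). At TN day 2 it read 6.80 and 6.76 in KO cells, against 6.99 and 7.06 in WT cells, and was not called (-0.25 ± 0.16, adjusted p = 0.41). The effects at the 2 stages were not shown to differ (-0.42 ± 0.21, adjusted p = 0.30; 0.044 in a fit of these 10 arrays). After ICRF-193 it was not called, at -0.06 ± 0.16 at TN day 5 (adjusted p = 0.86) and -0.18 ± 0.13 in cortical neurons (adjusted p = 0.35), though with only the 6 cortical arrays it was (0.028).

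Rph3a, the Rab3 effector, was the one member higher with ICRF-193 in both systems in every setting. At TN day 5 it read 8.34 and 8.78 with ICRF-193, against 7.09 and 7.55 with DMSO. In cortical neurons it read 9.23, 9.59 and 9.62 with ICRF-193, against 8.88, 8.74 and 8.73 with DMSO. The treated arrays lay above the DMSO arrays in both systems, by 1.24 ± 0.15 at TN day 5 (2.36-fold, limma adjusted p = 8.7e-06) and by 0.70 ± 0.12 in cortical neurons (1.63-fold, adjusted p = 0.00027). The difference between the drug effects was -0.54 ± 0.20 (adjusted p = 0.15). It was called without TN day 5 DMSO replicate 2 (0.034) and without TN day 5 ICRF-193 replicate 1 (0.042). In KO cells Rph3a was not called at any stage, with differences from -0.21 to 0.19.

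**Figure D3:**
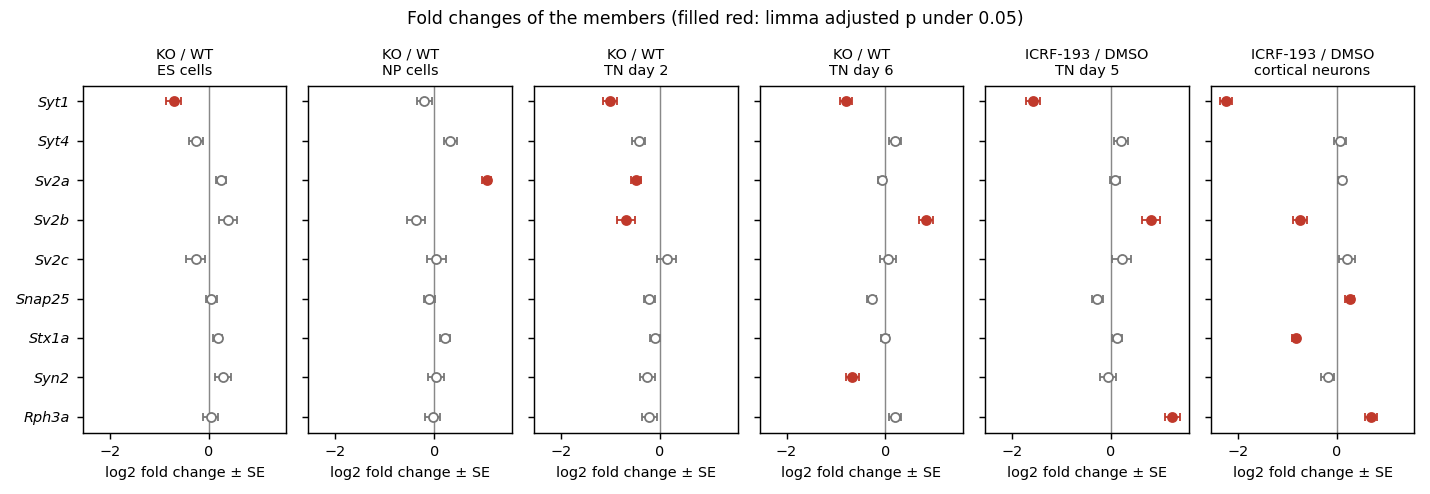
log2 fold change ± SE (x axis) of each gene (y axis) in the 6 comparisons of KO with WT and of ICRF-193 with DMSO, with calls filled red. Syt1 lies left of 0 in every panel, Rph3a is filled on the right in both ICRF-193 panels, and Sv2b changes side between TN day 2 and TN day 6 and between TN day 5 and cortical neurons.

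Counted together, 1 of the 9 genes was lower in KO ES cells and 0 were higher, where 0.351% of all genes were called (0.0853% higher and 0.266% lower). In NP cells 1 was higher (0.627% of all genes called, 0.381% higher). There were 3 lower at TN day 2 (11.5% of all genes called, 5.97% lower), and 1 higher and 2 lower at TN day 6 (10.2% called). In the drug comparison 2 were higher and 1 lower at TN day 5 (8.89% of all genes called), and 2 were higher and 3 lower in cortical neurons (23.4% called). The tests of differences between effects called 1 of the 9 for NP minus ES cells (0.256% of all genes), 3 for TN day 2 minus NP cells, all negative (2.71%, with 1.38% positive and 1.33% negative), 1 for TN day 6 minus TN day 2 (4.8%) and 3 for cortical neurons minus TN day 5 (4.37%). The median difference over the 9 genes was -0.25 at TN day 2, where that over all genes was -0.04. In the other 5 comparisons it was between 0 and 0.13, with the median of all genes between -0.02 and 0.04. The arrays of KO and WT cells did not overlap for 6 of the 9 genes in ES cells (32.5% of all genes), 4 in NP cells (38.1%), 8 at TN day 2 (51.7%) and 6 at TN day 6 (32.8%). Those of ICRF-193 and DMSO did not overlap for 4 genes at TN day 5 (46.1% of all genes) and 8 in cortical neurons (53.3%).

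Markers of other cell populations moved with these comparisons, and their part in the differences was not tested. At TN day 2, 5 of 7 pan-neuronal markers were lower in KO cells (summed values 73.0 to 75.0 in KO and 77.6 to 78.0 in WT). Of the cell cycle markers 3 of 5 were higher there, and of the mesenchymal markers 3 of 6 (summed values 56.3 to 58.8 in KO and 43.7 to 54.2 in WT). Of the 7 progenitor and radial glia markers 1 was higher and 2 were lower at TN day 2 (63.1 to 65.0 in KO and 64.3 to 70.3 in WT). At TN day 6, 0 of 7 pan-neuronal markers were called (78.2 to 78.7 in KO and 79.2 to 79.3 in WT). Of 5 glutamatergic markers, 2 were lower in KO cells at TN day 2 (29.6 to 31.1 in KO and 32.2 to 33.1 in WT) and 1 at TN day 6 (35.7 to 36.2 in KO and 38.1 to 38.7 in WT). Slc17a6 averaged 8.48 ± 0.34 in KO and 10.45 ± 0.06 in WT cells at TN day 6 (SD, n = 3 each). At the later stage 5 of 7 progenitor and radial glia markers (65.8 to 68.5 in KO and 58.0 to 59.1 in WT) and 5 of 5 cell cycle markers were higher in KO cells. With ICRF-193 at TN day 5, 5 of 7 progenitor markers (46.0 to 46.5 with the drug and 57.6 to 63.2 with DMSO) and 5 of 5 cell cycle markers were lower, and 2 of 7 pan-neuronal and 1 of 5 glutamatergic markers (35.3 to 35.6 with the drug and 36.9 to 37.4 with DMSO). Slc17a6 averaged 8.39 ± 0.03 with ICRF-193 and 9.93 ± 0.18 with DMSO there (SD, n = 2 each). In cortical neurons with ICRF-193, 5 of 6 astrocyte markers (36.2 to 36.8 with the drug and 44.0 to 45.6 with DMSO), 4 of 5 oligodendrocyte lineage markers, 4 of 7 progenitor markers (58.0 to 58.7 with the drug and 66.9 to 67.0 with DMSO) and 5 of 5 cell cycle markers were lower. All 6 microglia markers were higher there (43.4 to 44.3 with the drug and 39.1 to 39.6 with DMSO), and of the 7 pan-neuronal markers 3 were lower and 1 higher, and of the 5 glutamatergic markers 1 lower and 2 higher. In ES cells the pluripotency sum over 7 markers was 63.6 to 72.0 in KO and 70.8 to 71.9 in WT, with 0 called. The ES KO arrays lay apart in other sums too, again with 0 called. The mesenchymal sum was 50.4 to 60.7 in KO and 51.1 to 51.2 in WT. The endothelial sum was 37.3 to 43.4 in KO and 37.5 to 38.3 in WT, and the microglia sum 32.6 to 37.4 in KO and 31.9 to 32.3 in WT. In NP cells 1 of 6 endothelial markers was higher in KO cells (45.7 to 46.0 in KO and 40.2 to 40.9 in WT) and 1 of 7 progenitor markers lower (71.5 in both KO arrays and 73.6 to 74.2 in WT).

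A wider list of 88 other genes of vesicle release, of which 84 were measured, was counted in the same comparisons. In KO cells at TN day 2, 4 rose and 28 fell (4.76% and 33.3% of the list, where 5.49% of all genes rose and 5.97% fell), with a median of -0.26. The falling genes were spread over all 5 groups. They were 9 of 18 vesicle membrane and vesicle-associated genes, 6 of 14 in the active zone list and 6 of 17 endocytosis genes. The others were 4 of 21 genes of SNAREs and their regulators and 3 of 14 of synaptotagmins and other calcium sensors. The active zone list includes Doc2g and Rph3al. The dynamin gene Dnm3 fell by 1.11 ± 0.19 (adjusted p = 0.00046) and the priming factor gene Cadps by 1.04 ± 0.15 (adjusted p = 0.0001). The scaffold gene Erc2 stood at -1.0 ± 0.20, a call that was lost without TN day 2 KO replicate 2 (adjusted p = 0.066). The genes that rose most were Snap23, a SNARE of many cell types, with 0.85 ± 0.20, Stx4a with 0.60 ± 0.14 and Doc2b with 0.56 ± 0.10, and none of these 3 calls held in a fit of the 4 arrays alone (adjusted p = 0.053, 0.088 and 0.071). Those of Snap23 and Stx4a were also lost without TN day 2 WT replicate 1 (0.065 and 0.063) and without TN day 2 KO replicate 2 (0.17 each). The count of 32 was smaller without TN day 2 WT replicate 1 or without TN day 2 KO replicate 2, and so was the count over all genes. In a fit of the 4 arrays alone 315 of all genes were called, against 2284 as reported. The list count thus depends on the fit, and its range is given below.

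In KO cells at TN day 6, 2 of the 84 rose and 13 fell (5.38% of all genes rose and 4.8% fell; with median centring 783 rose and 1732 fell over all genes, and 2 and 25 in the list). The active zone scaffold genes Erc2 (-1.64 ± 0.16, adjusted p = 3.4e-07) and Ppfia2 (-1.12 ± 0.12) and the synaptotagmin gene Syt2 (-0.92 ± 0.13) fell most. Syt7, for a slower calcium sensor, rose by 0.54 ± 0.08 (adjusted p = 8.3e-05). Snap23 stood at 0.60 ± 0.16, and its call was lost without TN day 6 WT replicate 3 (adjusted p = 0.098) or KO replicate 1 (0.07) or 2 (0.11). In NP cells 2 of the 84 were called, Stxbp5l (0.54 ± 0.12) and Cltb (0.49 ± 0.10), and in ES cells 1, Dnm1 (0.57 ± 0.12), where 0.627% (NP) and 0.351% (ES) of all genes were called. Each of these 3 calls was lost in 6 alternatives, including a fit of the 4 arrays alone (adjusted p = 0.088, 0.23 and 0.93). Among the arrays whose omission ended a call were both NP KO arrays for Stxbp5l (0.13 and 0.42) and Cltb (0.18 and 0.33), and ES KO replicate 1 (0.39) and ES WT replicates 1 and 2 (0.26 and 0.18) for Dnm1. The Stxbp5l call was also lost without NP WT replicate 1 (0.18) or 2 (0.13), and the Cltb call without NP WT replicate 2 (0.45). Without ES KO replicate 2 the list count in ES cells was larger, and so was the count over all genes.

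With ICRF-193 at TN day 5, 6 of the 84 rose and 7 fell, where 2.51% of all genes rose and 6.37% fell. With quantile normalization 960 of all genes rose and 1101 fell. The split of the list is given here for the deposited scaling only. Erc2 read 6.96 on average with ICRF-193 and 9.29 with DMSO (-2.33 ± 0.20, limma adjusted p = 4.4e-08). Ppfia2 fell by 1.37 ± 0.15 and Rims2, for an active zone organizer, by 1.23 ± 0.14. Syt10 (1.47 ± 0.22) and Rimbp2 (0.81 ± 0.15) rose, calls lost with only the 4 arrays (adjusted p = 0.054 and 0.14), and Syt7 rose by 0.78 ± 0.10 in every setting. The count was smaller without TN day 5 DMSO replicate 2, and so was the count over all genes.

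In cortical neurons 11 of the 84 rose and 25 fell with ICRF-193, where 9.72% of all genes rose and 13.7% fell. With median centring the balance over all genes turned, as 3925 rose and 1952 fell. Array medians were 6.24 to 6.27 with ICRF-193 and 6.12 to 6.15 with DMSO. The split of the list into rising and falling genes is given here for the deposited scaling only. Erc2 stood at 6.35 with ICRF-193 and 9.52 with DMSO (-3.18 ± 0.16, adjusted p = 3.2e-12). Ppfia2 fell by 2.09 ± 0.12 and Rims1 by 1.18 ± 0.10. Unc13b, for a vesicle priming factor, rose by 0.59 ± 0.10 (adjusted p = 0.00017). Syt9 (0.60 ± 0.19) and Syt10 (0.56 ± 0.18) were called, and each call was lost in 5 of the 6 fits that left out 1 array (adjusted p from 0.056 to 0.11).

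**Figure D4:**
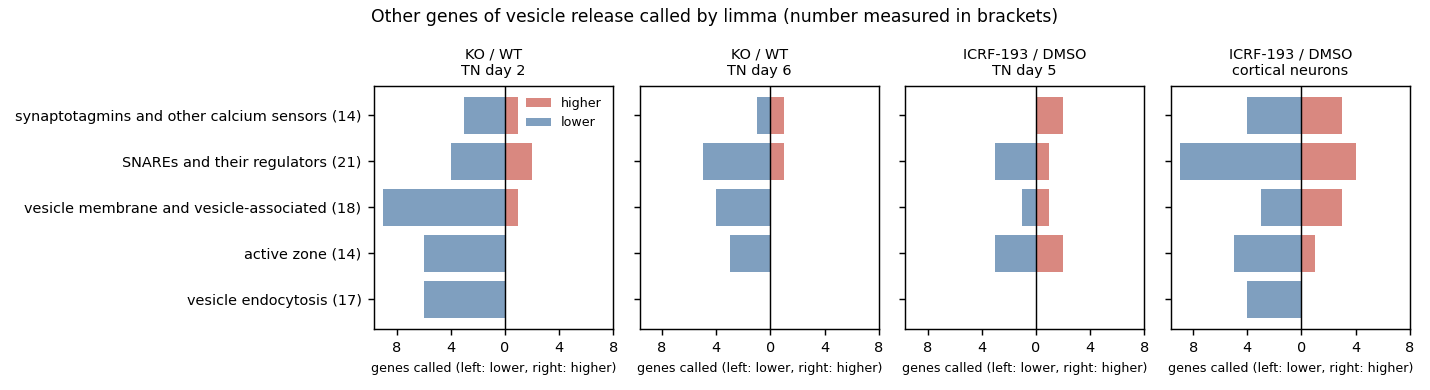
Number of genes called by limma (x axis, lower to the left and higher to the right of 0) in each of the 5 groups of the wider list (y axis, with the number measured in brackets), in 4 comparisons. The vesicle membrane and vesicle-associated genes have the longest bar to the left in KO cells at TN day 2 (9 of 18). In cortical neurons with ICRF-193 it is the genes of SNAREs and their regulators (9 of 21).

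The order of the 12 groups differed between genes. Cortical neurons with DMSO were highest for Syt1, Sv2b, Stx1a and Syn2, and for each of these the next group lay below all their arrays. Cortical neurons with ICRF-193 were highest for Syt4, Snap25 and Rph3a, and for Syt4 their range overlapped that of the DMSO arrays. For Sv2a the 6 groups from TN day 5, TN day 6 and cortex, led by TN day 6 WT (11.18), lay together, each overlapping the next in order, and were followed by TN day 2 WT (9.86), TN day 2 KO (9.38), NP KO (9.04), NP WT (7.98), ES KO (7.49) and ES WT (7.24) without overlap. For Rph3a the ES and NP groups (6.57 to 6.66) overlapped one another. The distance from the highest to the lowest group mean was 2.91 for Rph3a and 5.72 for Syt1, with the other genes between them.

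The genes whose 12 group means followed those of a member most closely were compared among 6708 genes whose group means varied (SD of at least 0.5). These correlations are descriptions over 12 points that share the same arrays and the rise from ES cells to neurons. For Syt1 they were Adgrb3 (Pearson r = 0.981) and Gnaq (0.977), and for Syt4 Tiprl and Prmt2 (0.997 each). For Sv2a they were Agap2 (0.988) and Lonrf2 (0.986), for Sv2b Ank (0.973) and Nat14 (0.969), and for Sv2c Meg3 and Iqsec3 (0.962 each). For Snap25 they were Prkar2b and Tspyl4 (0.993 each), for Stx1a Brinp2 (0.996) and Calm3 (0.986), for Syn2 Pde4dip (0.996) and Scn2b (0.985), and for Rph3a D130043K22Rik (0.978) and Rnf112 (0.970). Among the members themselves r lay between 0.54, for Sv2c with Rph3a, and 0.96, for Syt4 with Sv2a.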

How the data were processed

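Total RNA was hybridised to Affymetrix whole-transcript arrays, per the labels' protocols. The deposited table has 35556 probe sets by 28 arrays of log2 values. The submitters' processing notes name oligo 1.14.0. The sources used here give no background correction, normalization, summarization, log base or genome build, so base 2 was read from the range (1.963 to 13.99). Array medians lay between 6.12 and 6.43, and the number of arrays limits the precision.

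Of the probe sets 21789 carried 1 gene symbol, 1621 several and 12146 had no entry. Of the first kind, the probe set with the highest mean was kept for each of 19938 genes (999 had several). A linear model of 12 group means was fitted with limma 3.58.1 in R 4.3.3 (16 residual and 4.87 prior degrees of freedom; two-sided tests) and was tested on simulated data. The 6 main comparisons, 6 stage steps and 4 interactions were adjusted separately over all genes. Same-numbered arrays did not deviate together in every pair, so replicate numbers were not used as pairs. The r of their deviations from the group means ran from -0.23 in NP cells to 0.379 at TN day 5. The members and lists were chosen with earlier results of these data known. All members were described. Of the wider list, up to 3 called genes a direction in each main comparison were named by size, and of similar genes the 2 with the highest r. Other scalings, array weights, a trended robust prior, a filter on dim genes, only the arrays compared, all probe sets, replicate blocks and leaving out each array were tried. Promoter sequences and gene spans are from RefSeq, GRCm38.p6; 7 of the 10 genes have a promoter window there that was searched.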

Additional observations from a re-analysis of the deposited data

Results flagged for a closer look

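Tests of the difference between effects singled out 8 results, of which the tests and their limits stand above. The KO effect on Sv2a was larger in NP than in ES cells by 0.81 (SE 0.14, limma adjusted p = 0.0071), which was lost with array weights (0.26), with only the arrays compared (0.55) and without ES WT replicate 1 (0.056). The KO effect on Sv2a at TN day 2 minus that in NP cells was -1.54. The same difference was -0.81 for Syt1 and -0.75 for Syt4. The KO effect on Sv2b at TN day 6 minus that at TN day 2 was 1.51. The ICRF-193 effect in cortical neurons minus that at TN day 5 was -1.55 for Sv2b, -0.97 for Stx1a and 0.55 for Snap25. Groups of 2 or 3 arrays were too small to test whether a single array is an outlier. Each array was instead left out in turn, as given above and below.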

How the results depend on the processing

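Over the 9 genes, 16 comparisons and all alternatives, 1838 of 1935 values kept their side of the threshold, 60 lost a call, 37 gained one and 0 called values turned direction; 43 uncalled values, of 0.22 or less in size, changed sign. In KO ES cells the count of called members, 1 as reported, was 0 with array weights, with the replicate block and in a fit of the compared arrays alone, and 0 to 2 with 1 array left out. At TN day 2, with 3 as reported, that fit gave 1, and leaving out 1 array gave 1 to 3. For the KO effect in NP minus ES cells it was 0 with array weights and in that fit, and 0 to 3 with 1 array left out. For TN day 2 minus NP cells it was 1 in that fit, and 1 to 3 with 1 array left out. For TN day 6 minus TN day 2, 1 as reported, it was 2 with quantile normalization and with all probe sets, 3 with array weights, with the trended robust prior, with dim genes left out and in that fit, and 1 to 2 with 1 array left out. Fits of the compared arrays alone also use fewer arrays, and the causes of these changes in count were not tested. With the replicate block (same-numbered arrays paired within a stage) 110 genes in all were called in NP cells and 2214 at TN day 2, against 125 and 2284 without it. In the KO and drug comparisons of the members it ended the Syt1 call in ES cells and added the Snap25 call at TN day 6 (limma adjusted p = 0.049), and it changed no other call of theirs. At TN day 6 and in cortical neurons not every array correlated best with its own number. The crossed replicate block in NP cells, added after seeing the data because same-numbered arrays there correlated at -0.23, left 1 member called. A block over the stages was also added for the stage steps. The counts over all genes ranged from 0 to 5018 in ES cells (70 as reported), 37 to 251 in NP cells (125), 315 to 2670 at TN day 2 (2284), 1394 to 3816 at TN day 6 (2030), 385 to 2291 at TN day 5 (1772) and 3321 to 8967 in cortical neurons (4664). For the wider list they were 0 to 31 in ES cells, 0 to 2 in NP cells, 4 to 35 at TN day 2, 11 to 29 at TN day 6, 6 to 16 at TN day 5 and 27 to 54 in cortical neurons.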

Other observations

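Along differentiation, the 84 genes of the wider release list rose more often than they fell from NP cells on. From ES to NP cells 21 rose and 21 fell in KO cells, and 25 rose and 22 fell in WT cells, where 16.3% of all genes rose and 20.7% fell in KO cells and 21.7% rose and 24.5% fell in WT cells. From NP cells to TN day 2, 36 rose and 13 fell in KO cells, and 45 rose and 14 fell in WT cells, where 19.6% of all genes rose and 24.8% fell in KO cells and 21.6% rose and 26.6% fell in WT cells. From TN day 2 to TN day 6, 59 rose and 6 fell in KO cells (median 0.58), and 49 rose and 3 fell in WT cells (median 0.45), where 22.1% of all genes rose and 12.8% fell in KO cells and 16.7% rose and 11.9% fell in WT cells. The difference between these genotype steps was called for 6 of the 84 genes, 3 in each direction, where 4.8% of all genes were called, 2.71% positive and 2.09% negative.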
